A study of Mus musculus with 6 samples.

Results

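The CCR4-NOT deadenylase complex genes were described in RNA-seq of B16-F10 tumours. They are 10 genes, Cnot1, Cnot2, Cnot3, Cnot4, Cnot6, Cnot6l, Cnot7, Cnot8, Cnot10 and Cnot11, of the 53801 genes counted in each tumour, and were matched by symbol. The set was chosen by the normalised read counts of Cnot6, which were lower in the tumours of sevoflurane-primed cells, so the Cnot6 values are given as a description with no test, and the question was whether its paralogue and the other subunits followed. B16-F10 is a mouse skin melanoma cell line. In the SEVO group (n = 3) its cells had been exposed to sevoflurane, a volatile anaesthetic: 2% of the gas was led through the chamber for 30 min, and the cells stayed in it for a further 2 h before they were injected. In the CTRL group (n = 3) the cells were not primed. All cells were injected under the skin of awake wild-type male C57BL/6J mice aged 10 to 12 weeks, which were followed for up to 4 weeks, and RNA came from small pieces of the whole tumour.

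CCR4-NOT shortens the poly(A) tails of messenger RNAs in the cytoplasm, a step that usually comes before translational silencing and decay of the message. Cnot1 is the scaffold. It carries one nuclease of the DEDD type (Cnot7 or its paralogue Cnot8), which in turn binds one nuclease of the EEP type (Cnot6 or its paralogue Cnot6l). Cnot2 and Cnot3 form a module at the C-terminal end of Cnot1, and Cnot10 and Cnot11 form another at its N-terminal end. Cnot4 is a ubiquitin ligase that takes part in quality control on ribosomes and is loosely bound in mammals.

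Each tumour had between 723431 and 1348676 reads counted on genes. These were between 2.06% (SEVO tumour 1) and 4.61% (CTRL tumour 1) of the uniquely aligned reads. The genes Gm10800 and Gm10801 together took 49.0, 1.31 and 35.5% of the counted reads in CTRL tumours 1, 2 and 3. In SEVO tumours 1, 2 and 3 they took 7.97, 8.71 and 18.7%. Whether the counted reads all came from messenger RNA was not tested. The low counts limited the precision for every member: a member had a median of 12 reads per tumour, with a range of 0 to 84. The labels name monocytes as cell type and tumour as source. The 9 melanocyte markers together had 577 to 1758 reads per tumour, the 9 macrophage markers 144 to 276 and the 4 monocyte markers 3 to 45. Some myeloid RNA was thus present, but melanocyte reads were the more numerous, and the samples were treated as tumour tissue. All 9 melanocyte markers had log2 fold changes below 0 and none passed the adjusted threshold. Their summed level was 1454 to 1520 CPM in CTRL and 664 to 1917 CPM in SEVO. Only 2 macrophage markers passed the filter on low counts, both with log2 fold changes above 0, and no monocyte marker passed. The 9 macrophage markers together had 175 to 280 CPM in CTRL and 219 to 317 CPM in SEVO. The part of these cell types in the results below was not tested. Reads on the 1458 olfactory and vomeronasal receptor genes, which work in sensory neurons, differed widely between tumours. They reached 1.30, 0.0756 and 0.589 reads per kb of exon in CTRL tumours 1, 2 and 3, and 0.184, 0.210 and 0.397 in SEVO tumours 1, 2 and 3. This density, multiplied by the exon length of a member, is used here as the number of reads expected on it as background. CTRL tumour 1 thus stood highest and CTRL tumour 2 lowest, and the values that move with this order are given beside each member. The authors thawed a new frozen stock of cells for every experimental group. Whether CTRL and SEVO had separate stocks is not stated. If they had, stock and priming cannot be told apart. No source says that the tumours of a group came from separate batches or cultures of cells, so p-values measure the spread between these tumours.

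Normalised read counts are given as CPM, read counts brought to a common library size with the TMM factors of edgeR, and fold changes are SEVO over CTRL on the log2 scale with the standard error of edgeR. Of the 10 members, 7 passed the filter on low counts. Cnot2, Cnot6l and Cnot8 did not pass and are taken from a fit of all genes with at least 1 read. Cnot6 and Cnot11 passed only through the CTRL tumours, since 3 CTRL tumours and 0 SEVO tumours reached the minimum of the filter, so a lower level in SEVO was favoured by their passing. In tumour tissue, fewer cells that express a gene and less RNA per cell cannot be told apart.

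Cnot6 and Cnot6l encode the EEP nucleases of the complex, and their coding sequences were 73.7% identical over 1651 aligned bases. The following stretches of 120 coding bases, from GENCODE M21 transcripts on GRCm38 and written 5′ to 3′, are shown because they hold the longest run that both genes share. Capitals mark the 24 bases that differ between them. The Cnot6 stretch lies in exons on the minus strand within chr11:49677392-49679929, and the Cnot6l stretch in exons on the minus strand within chr5:96080025-96082878.
Cnot6: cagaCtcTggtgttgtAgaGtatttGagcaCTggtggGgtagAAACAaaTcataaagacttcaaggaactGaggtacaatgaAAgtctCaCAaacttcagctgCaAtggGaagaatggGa
Cnot6l: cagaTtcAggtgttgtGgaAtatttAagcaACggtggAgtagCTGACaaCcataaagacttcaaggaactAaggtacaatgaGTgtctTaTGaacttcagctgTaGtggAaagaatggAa
The shared run, cataaagacttcaaggaact, is 20 bases long. No stretch of 50 bases in the Cnot6l transcripts occurred in a transcript of another gene, and 0.812% of those in the Cnot6 transcripts did, so reads that cover 50 bases of either gene can be assigned to one paralogue almost everywhere.

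Cnot6 (ENSMUSG00000020362.13, chr11:49671503-49712723, minus strand) had 36, 15 and 30 reads in CTRL tumours 1, 2 and 3. It had 6, 6 and 7 reads in SEVO tumours 1, 2 and 3. All 3 SEVO tumours were below all 3 CTRL tumours. The exact 95% Poisson intervals, which cover counting error only, were 2.20 to 13.1 reads in SEVO tumours 1 and 2. They were 2.81 to 14.4 reads in SEVO tumour 3 and 8.40 to 24.7 reads in CTRL tumour 2. The closeness of the SEVO counts is therefore no measure of how alike these tumours were. The level was 32.3 ± 12.6 CPM (SD, n = 3) in CTRL and 6.99 ± 0.604 CPM in SEVO, a ratio of 4.62 and a log2 fold change of -2.19 (SE 0.53). With single tumours left out it ranged from -2.31 to -1.91.

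The Cnot6 reads exceeded the expected background in each tumour. For CTRL tumours 1, 2 and 3 the expected number was 8.57, 0.500 and 3.90 reads, and for SEVO tumours 1, 2 and 3 it was 1.22, 1.39 and 2.62 reads. Cnot6 had 6.25 times the expected background over the CTRL tumours and 3.63 times over the SEVO tumours. The lowest CTRL value, 15 reads, came from the tumour with the lowest background. After subtraction of the expected reads, the log2 ratio of the group means was -2.42, beside -2.21 before. With the receptor gene density as a covariate, the log2 fold change was -1.95.

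Cnot6l (ENSMUSG00000034724.17, chr5:96070333-96164171, minus strand) had 11, 0 and 14 reads in CTRL tumours 1, 2 and 3 and 3, 2 and 8 reads in SEVO tumours 1, 2 and 3. The lowest count of all was in CTRL and the groups overlapped, at 9.81 ± 8.60 CPM in CTRL and 4.77 ± 3.48 CPM in SEVO. The exact 95% Poisson interval of a count of 0 reaches up to an expected 3.69 reads. In the fit of all genes with a read, the log2 fold change was -0.46 (SE 0.83, adjusted p = 0.886 in edgeR). With the scaling of the filtered genes it was -1.02 (SE 0.98). Its reads were 1.24 times the expected background over the CTRL tumours and 1.59 times over the SEVO tumours, and its 3 highest tumours were the 3 with the highest receptor gene density. The level of Cnot6l was therefore hardly above the background in either group, and whether it followed Cnot6 could not be told at this depth.

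**Figure D1:**
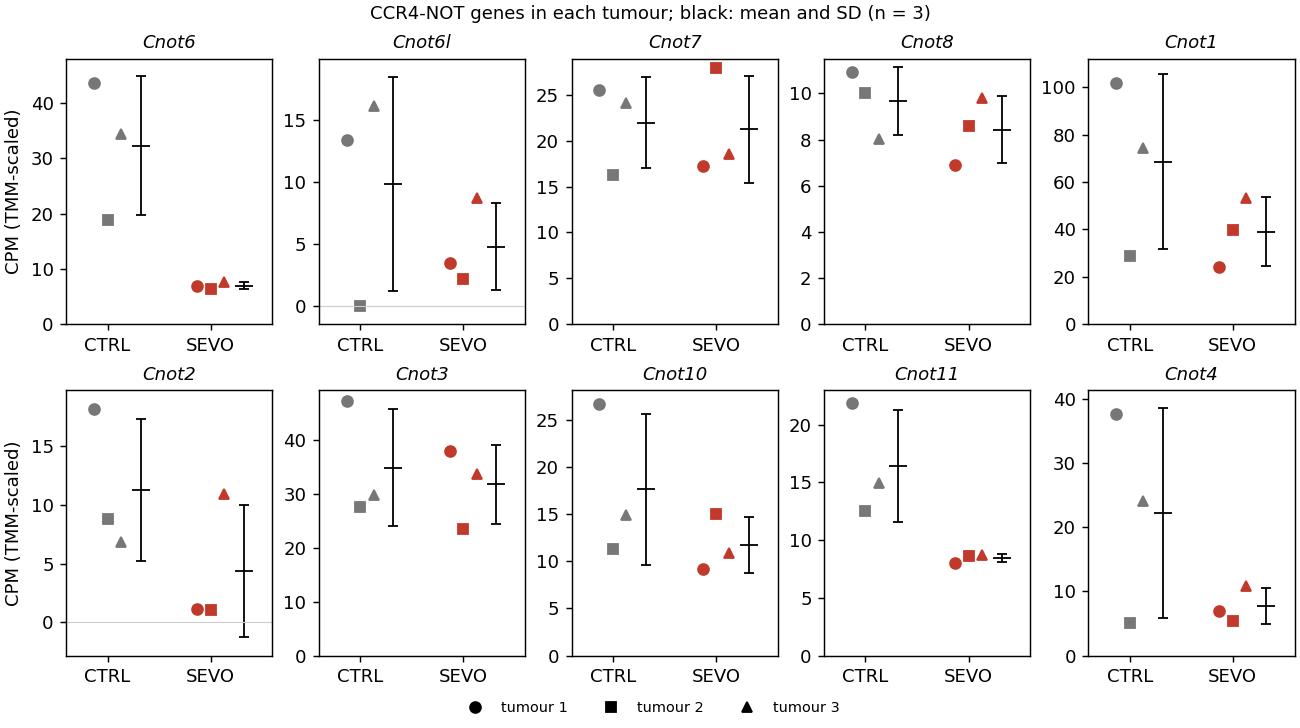
Normalised read counts (CPM) of each CCR4-NOT gene in the 3 CTRL (grey) and 3 SEVO (red) tumours, with the mean and SD of each group in black and separate linear axes. Cnot6 and Cnot11 are the members in which all SEVO tumours lie below all CTRL tumours, and in Cnot7, Cnot8 and Cnot3 the groups overlap broadly.

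Because 2 genes in the same library share its depth and scaling, the share of Cnot6 among the reads of the complex does not depend on the normalisation. Cnot6 made up 12.6% (95% exact binomial interval 8.97 to 17), 13.5% (7.77 to 21.3) and 13.9% (9.57 to 19.2) of the reads of all 10 genes in CTRL tumours 1, 2 and 3. In SEVO tumours 1, 2 and 3 it made up 5.66% (2.11 to 11.9), 4.65% (1.73 to 9.85) and 4.40% (1.79 to 8.86). The intervals cover counting error only. The reads on the complex ranged from 111 to 286 in the CTRL tumours. Their 3 shares lay much closer together than their intervals are wide, so this closeness does not show a stable share. Since Cnot6 was chosen for its low level in SEVO, the difference in its share is a description only. The mean share was 13.3 ± 0.670% in CTRL and 4.90 ± 0.666% in SEVO, a difference of -8.43 percentage points, and between -8.80 and -8.15 with single tumours left out.

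Within the pair of EEP nucleases, Cnot6 took 76.6, 100 and 68.2% of the reads in CTRL tumours 1, 2 and 3 and 66.7, 75.0 and 46.7% in SEVO tumours 1, 2 and 3. Here the groups overlapped, at 81.6 ± 16.5% and 62.8 ± 14.6%. The difference of -18.8 percentage points was -9.61 without CTRL tumour 2 and -10.8 without SEVO tumour 3. The SEVO shares rested on 8 to 15 reads per tumour, so their intervals were wide, such as 34.9 to 96.8% in SEVO tumour 2. Cnot6 was the more abundant paralogue in 5 of the 6 tumours by reads.

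**Figure D2:**
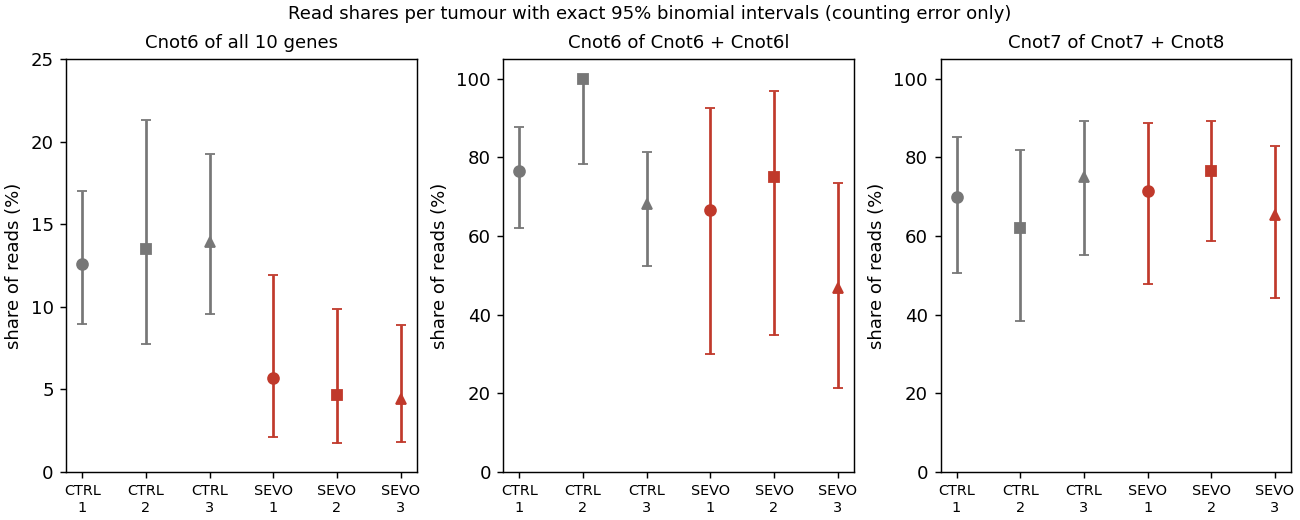
Shares of reads in percent for each tumour, with exact 95% binomial intervals for counting error: Cnot6 among all 10 genes (left), Cnot6 among Cnot6 and Cnot6l (middle), and Cnot7 among Cnot7 and Cnot8 (right). The Cnot6 share of the complex lies between 12.6 and 13.9% in CTRL and between 4.40 and 5.66% in SEVO, and the shares within both pairs overlap between the groups.

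Cnot7 and Cnot8 encode the DEDD nucleases, and their coding sequences were 72.4% identical over 855 aligned bases. The stretches of 120 coding bases around the longest run they share are given for the same purpose, with capitals at the 28 bases that differ. They lie in exons on the minus strand within chr8:40499381-40500812 for Cnot7 and on the plus strand within chr11:58113153-58114008 for Cnot8.
Cnot7: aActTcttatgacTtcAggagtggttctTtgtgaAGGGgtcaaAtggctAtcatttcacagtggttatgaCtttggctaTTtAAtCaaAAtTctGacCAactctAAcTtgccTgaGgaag
Cnot8: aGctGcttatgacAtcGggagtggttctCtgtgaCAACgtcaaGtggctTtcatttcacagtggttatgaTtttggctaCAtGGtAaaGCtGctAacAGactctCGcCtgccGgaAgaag
The shared run, tcatttcacagtggttatga, is again 20 bases long. Of the stretches of 50 bases in Cnot8, 7.82% also occurred in the predicted gene Gm18860, so a part of its reads could not have been assigned uniquely. Of those in Cnot7, 2.76% occurred in other genes, mostly (154 of 164) in Zdhhc2. The exons of Zdhhc2 overlap those of Cnot7 over 247 bases on the opposite strand. Whether reads in this overlap could be assigned depends on the strand setting of the counting, which is not given in the sources used here.

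Cnot7 (ENSMUSG00000031601.16, chr8:40492540-40515847, minus strand) had 21, 13 and 21 reads in CTRL tumours 1, 2 and 3 and 15, 26 and 17 reads in SEVO tumours 1, 2 and 3. The highest tumour was a SEVO tumour and the lowest a CTRL tumour, and the means were 22.0 ± 4.95 CPM in CTRL and 21.2 ± 5.81 CPM in SEVO. The log2 fold change was -0.05 (SE 0.46, adjusted p = 0.967 in edgeR), and its sign changed with the scaling. The difference between the groups was smaller than the spread within each of them.

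Cnot8 (ENSMUSG00000020515.13, chr11:58104153-58118594, plus strand) had 9, 8 and 7 reads in CTRL tumours 1, 2 and 3 and 6, 8 and 9 reads in SEVO tumours 1, 2 and 3. The groups overlapped, at 9.66 ± 1.48 CPM and 8.43 ± 1.46 CPM. Counting error was wide, such as an exact 95% Poisson interval of 4.12 to 17.1 reads in CTRL tumour 1. The small SDs therefore do not show that the tumours were alike. In the fit of all genes with a read, the log2 fold change was 0.30 (SE 0.72, adjusted p = 0.923 in edgeR), and -0.19 with the scaling of the filtered genes. It was 0.023 without CTRL tumour 1, 0.14 without CTRL tumour 3 and 0.59 without CTRL tumour 2. Cnot7 and Cnot8 stood at 12.6 and 11.0 times the expected background in SEVO, and at 4.82 and 4.64 times in CTRL.

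The balance within this pair did not differ beyond the spread between tumours. Cnot7 took 70.0, 61.9 and 75.0% of the reads of the pair in CTRL tumours 1, 2 and 3 and 71.4, 76.5 and 65.4% in SEVO tumours 1, 2 and 3. The means were 69.0 ± 6.61% and 71.1 ± 5.55%, a difference of 2.13 percentage points (exact two-sided permutation test, p = 0.7, n = 3 per group). The smallest p that 3 tumours against 3 allow is 0.1, so this test could not have reached 0.05.

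Cnot1 (ENSMUSG00000036550.16, chr8:95719451-95807464, minus strand), the scaffold, had the most reads of the 10 genes and the most exon bases, 17169. It had 84, 23 and 65 reads in CTRL tumours 1, 2 and 3 and 21, 37 and 49 reads in SEVO tumours 1, 2 and 3. The CTRL tumours spanned the SEVO tumours nearly in full, at 68.5 ± 36.9 CPM against 39.1 ± 14.7 CPM. The log2 fold change was -0.81 (SE 0.45, adjusted p = 0.741 in edgeR), and 4 of its tumours, CTRL tumours 1 and 3 and SEVO tumours 3 and 2, came in the same order as the receptor gene density. With that density as a covariate the log2 fold change was -0.39, and with the expected reads subtracted the log2 ratio of the group means was -0.69. Without CTRL tumour 1 the log2 fold change was -0.40, and without SEVO tumour 1 it was -0.46.

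Cnot2 and Cnot3 form the module at the C-terminal end. Cnot3 (ENSMUSG00000035632.16, chr7:3645268-3661109, plus strand) had 39, 22 and 26 reads in CTRL tumours 1, 2 and 3 and 33, 22 and 31 reads in SEVO tumours 1, 2 and 3. The groups overlapped almost wholly, at 34.9 ± 10.8 CPM and 31.8 ± 7.39 CPM, with a log2 fold change of -0.14 (SE 0.40, adjusted p = 0.895 in edgeR) whose sign changed with the scaling. Its exons overlap Leng1 on the opposite strand over 433 bases and Mir3572 on its own strand over 86 bases, and 13.5% of its stretches of 50 bases occurred in other genes.

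Cnot2 (ENSMUSG00000020166.15, chr10:116485161-116581511, minus strand) had 15, 7 and 6 reads in CTRL tumours 1, 2 and 3 and 1, 1 and 10 reads in SEVO tumours 1, 2 and 3. SEVO tumours 1 and 2 were below every CTRL tumour and SEVO tumour 3 was above CTRL tumours 2 and 3 in reads, so the SD in SEVO, 5.66 CPM, was larger than the mean, 4.38 CPM. The CTRL level was 11.3 ± 6.07 CPM. In the fit of all genes with a read, the log2 fold change was -0.84 (SE 0.82, adjusted p = 0.793 in edgeR), and -1.33 (SE 0.96) with the scaling of the filtered genes. It was -2.55 without SEVO tumour 3, -0.43 without SEVO tumour 2 and -0.47 without SEVO tumour 1, so its size depended on which SEVO tumours were included.

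Cnot11 and Cnot10 form the N-terminal module. Cnot11 (ENSMUSG00000003135.15, chr1:39534992-39546889, plus strand) had 18, 10 and 13 reads in CTRL tumours 1, 2 and 3 and 7, 8 and 8 reads in SEVO tumours 1, 2 and 3. It was the only member besides Cnot6 in which all SEVO tumours lay below all CTRL tumours, an arrangement that 4.39% of the tested genes had, while in 8.56% the groups did not overlap in either direction. It passed the filter through the CTRL tumours alone, so this arrangement is given as a description. The level was 16.4 ± 4.84 CPM in CTRL and 8.45 ± 0.356 CPM in SEVO, a log2 fold change of -0.95 (SE 0.58, adjusted p = 0.741 in edgeR). The difference did not pass the adjusted threshold. Counting error was wide, such as an exact 95% Poisson interval of 2.81 to 14.4 reads in SEVO tumour 1. The small SD in SEVO therefore does not show that these tumours were alike. With groups that do not overlap, an exact permutation test always gives its smallest p, so it would add nothing here. Its reads were 5.96 times the expected background over the CTRL tumours and 8.28 times over the SEVO tumours, and none of its stretches of 50 bases occurred in another gene.

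Cnot10 (ENSMUSG00000056167.7, chr9:114585878-114640184, minus strand) had 22, 9 and 13 reads in CTRL tumours 1, 2 and 3 and 8, 14 and 10 reads in SEVO tumours 1, 2 and 3. The groups overlapped, and CTRL tumour 1 alone stood above all SEVO tumours. The level was 17.6 ± 8.06 CPM in CTRL and 11.7 ± 2.99 CPM in SEVO, a log2 fold change of -0.58 (SE 0.58, adjusted p = 0.769 in edgeR). Without CTRL tumour 1 it was -0.16, and without SEVO tumour 1 it was -0.34.

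Cnot4 (ENSMUSG00000038784.13, chr6:35022065-35133724, minus strand), the ubiquitin ligase, had 31, 4 and 21 reads in CTRL tumours 1, 2 and 3 and 6, 5 and 10 reads in SEVO tumours 1, 2 and 3. After Cnot6 its fold change was the largest of the members that passed the filter, but the lowest tumour was a CTRL tumour. The level was 22.3 ± 16.4 CPM in CTRL and 7.72 ± 2.86 CPM in SEVO, a log2 fold change of -1.51 (SE 0.71, adjusted p = 0.741 in edgeR). The tumours with the most Cnot4, CTRL tumours 1 and 3 and SEVO tumour 3, and the tumour with the least, CTRL tumour 2, were also those with the highest and the lowest receptor gene density. Its reads were 2.92 times the expected background over the CTRL tumours and 2.71 times over the SEVO tumours. With the density as a covariate the log2 fold change was -0.77, and without CTRL tumour 1 it was -0.91. With the expected background reads subtracted, the log2 ratio of the group means was -1.58, beside -1.53 before. Thus the 2 ways of taking the background into account gave different values.

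**Figure D3:**
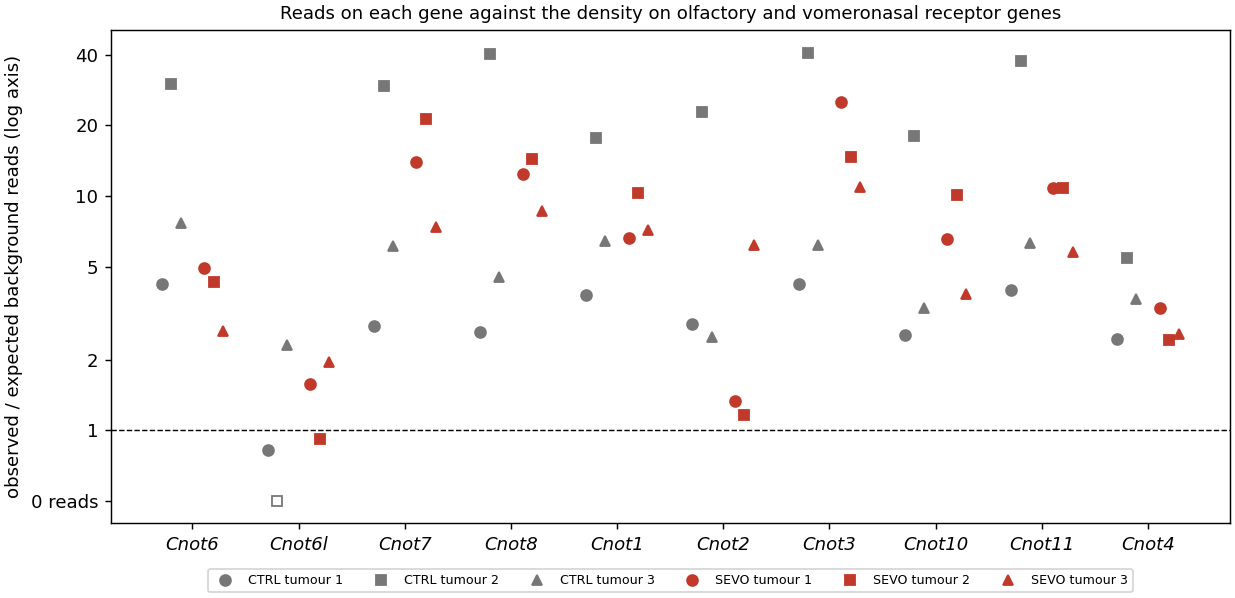
Reads on each gene divided by the reads expected from the density on olfactory and vomeronasal receptor genes, for each tumour (log axis, dashed line at 1, open symbol for 0 reads). Cnot6l lies around the line in both groups, Cnot2 comes close to it in SEVO tumours 1 and 2, and the other members lie above it in all 6 tumours.

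Of the 9 other members, none passed the adjusted threshold. In edgeR 0 of 7561 tested genes (0.00%) had an adjusted p under 0.05, and 330 (4.36%) had an unadjusted p under 0.05. DESeq2, run over the 42423 genes with at least 1 read, called 0 genes at an adjusted p under 0.05 and 265 at an unadjusted one. Of the tested genes, 3.84% had an unadjusted p under 0.05 with lower levels in SEVO, and none of the 9 other members did.

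The direction of the whole set depended on the scaling. TMM factors computed over all genes with a read, rather than over the filtered genes, moved the median log2 fold change of the filtered genes by 0.48, to 0.44. Under that scaling, 6 of the 10 members were below 0, against 61.9% of all genes with a read, and of the 9 other members 5 were lower and 4 higher. With the scaling of the filtered genes, all 10 were below 0, where 78.4% of all genes with a read were. Cnot6 was the lowest member under both scalings, at -2.19 and -1.62.

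**Figure D4:**
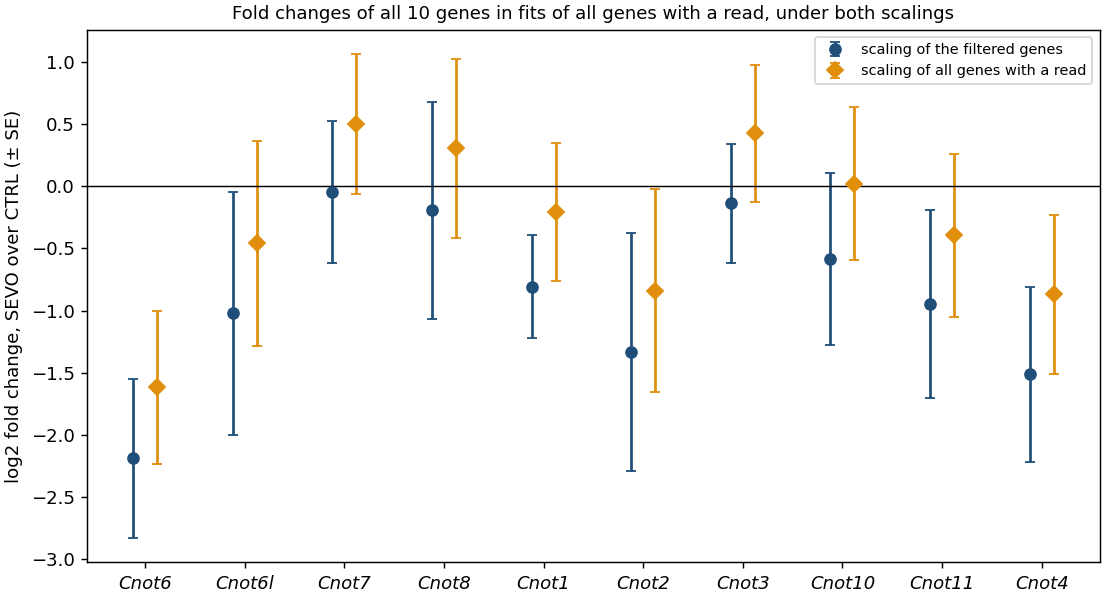
Log2 fold changes (SEVO over CTRL) with standard errors of the 10 genes in edgeR fits of all genes with a read, scaled with the factors of the filtered genes (circles) or of all genes with a read (diamonds). The change of scaling moves all members up together, so that Cnot3, Cnot7, Cnot8 and Cnot10 lie above 0 under the second scaling while Cnot6 remains the lowest.

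The summed level of the 9 other members was 303.5, 120.4 and 213.4 CPM in CTRL tumours 1, 2 and 3 and 115, 132 and 165.8 CPM in SEVO tumours 1, 2 and 3. The groups overlapped, with CTRL tumour 2 below 2 of the 3 SEVO tumours. The means were 212 ± 91.6 CPM and 138 ± 25.8 CPM, a log2 ratio of -0.63, which became -0.28 without CTRL tumour 1. With the expected background reads subtracted, it was -0.45. Scaled by library size only, it was -0.28. Thus the rest of the complex had a lower mean in SEVO, by an amount that depended on 1 tumour and on the scaling.

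Among the reads of these 9 genes, the composition overlapped between the groups for each gene. Cnot1 held the largest mean share, 30.8 ± 5.99% in CTRL and 27.8 ± 5.96% in SEVO. Cnot3 held 17.5 ± 4.76% and 23.8 ± 8.10%, and Cnot7 held 11.1 ± 2.58% and 15.8 ± 5.02%. Cnot4 held 9.29 ± 4.47% and 5.55 ± 1.32%, and Cnot11 held 8.20 ± 1.92% and 6.26 ± 0.895%. The share of Cnot10 was the most even between the groups, at 8.39 ± 1.25% and 8.65 ± 2.47%.

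Per exon length, the levels of the members could be compared with each other. In CTRL, Cnot3 was highest, with 4.90 ± 1.52 CPM per kb (SD, n = 3), followed by Cnot6 with 4.89 ± 1.90, Cnot11 with 4.69 ± 1.38, Cnot1 with 3.99 ± 2.15, Cnot7 with 3.77 ± 0.851 and Cnot8 with 3.67 ± 0.562. Cnot2 had 2.77 ± 1.49, Cnot10 2.66 ± 1.22, Cnot4 2.28 ± 1.68 and Cnot6l 0.951 ± 0.834 CPM per kb. In SEVO, Cnot3 was again highest, with 4.46 ± 1.04 CPM per kb, followed by Cnot7 with 3.65 ± 0.998, Cnot8 with 3.20 ± 0.555, Cnot11 with 2.41 ± 0.101, Cnot1 with 2.28 ± 0.854 and Cnot10 with 1.77 ± 0.452. Cnot2 had 1.07 ± 1.39, Cnot6 1.06 ± 0.0914, Cnot4 0.790 ± 0.293 and Cnot6l 0.463 ± 0.338 CPM per kb. Neighbours in both orders differed by less than the larger of their SDs, with the exception of Cnot8 and Cnot11 in SEVO. The SDs of these 2 genes rest on 6 to 9 reads per tumour and do not cover the counting error. All exons of a gene were counted as its length, so a gene with long untranslated exons that are little used would appear lower.

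The pattern of Cnot6 over the 6 tumours was compared with the other 7560 tested genes by Pearson's r of log2 CPM. Among the most alike were Casd1 (0.99), a sialic acid acetyltransferase of the Golgi, Ube3c (0.99), a ubiquitin ligase, Sp3 (0.98), a zinc finger transcription factor, and Nfatc3 (0.98), a calcium-regulated transcription factor. Since Cnot6 was chosen for its low level in SEVO, genes picked by this measure are low in SEVO too, such as Sp3 with 10.7 ± 0.843 CPM against 29.7 ± 7.14 CPM in CTRL. An r over 0.9 was reached by 109 genes (1.44%). Of the members, Cnot11 had the highest r, 0.97, then Cnot4 (0.80), Cnot1 (0.72), Cnot10 (0.71), Cnot3 (0.41) and Cnot7 (0.29). For the members too, r partly restates their own difference between the groups. It is therefore no separate sign that a member followed Cnot6, least of all for Cnot11, which passed the filter through CTRL alone. All of these values share the depth, scaling and background of the same 6 libraries.

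Other genes of deadenylation and mRNA decay were read from the same fit. Of 68 genes in 5 lists, 35 passed the filter, 25 with a log2 fold change below 0 and 10 above. Those below 0 were 71.4% of the 35, beside 51.1% of all tested genes, and the median was -0.61, beside -0.02. Without the filter, 41 of 67 genes were below 0, beside 61.9% of all genes with a read, which was no excess. Scaled by library size only, 19 of the 35 were below 0, beside 38% of all tested genes. At an adjusted p under 0.05 edgeR called 0 of them, and at an unadjusted p under 0.05 also 0, so no gene of these lists was shown to change.

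The genes that shorten or bind poly(A) tails, and those that bring CCR4-NOT to its targets, had medians below that of all tested genes, without a test of these differences. Their expected background reads were not subtracted. In CTRL tumours 1, 2 and 3, Pan3 had 53, 12 and 30 reads and Tnrc6b 87, 18 and 47, the order of the receptor gene density. Tob2, with 32, 22 and 14 reads, and Toe1, with 17, 22 and 11, did not have this order. The part of the background in these medians was not tested. The 6 tested CCR4-NOT genes other than Cnot6 had a median of -0.69, with the 3 members of low counts left out by the filter. Of the recruiters and Cnot9, a further core subunit that contacts silencing proteins, 10 of 11 tested were below 0, with a median of -0.76. Rc3h1, which binds stem-loops in target messages, was at 23.4 ± 13.7 CPM in CTRL against 9.85 ± 5.98 CPM in SEVO, a log2 fold change of -1.23. Tob2, an adaptor between poly(A)-binding protein and the nucleases, was at -0.76, and Tnrc6b, which links microRNA complexes to CCR4-NOT, at -0.78. Of the other deadenylases, 5 of 6 were below 0, with a median of -0.72. Pan3 was at -0.99 and Pan2 at -1.14, the partners of a second deadenylase that acts on long tails, and Toe1 at -0.69. Of the poly(A)-binding genes only Paip2b, at -0.82, and Pabpc1, at -0.76, passed the filter, and Pabpc1 encodes the main cytoplasmic poly(A)-binding protein.

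The genes that act after deadenylation were split. Of decapping and 5′ to 3′ decay, 3 of 7 tested genes were below 0, with a median of 0.01. The 3 were Ddx6, a helicase that CCR4-NOT binds, at -1.33, Xrn1, the 5′ to 3′ exonuclease, at -1.22, and Lsm14a, a Ddx6 partner, at -1.21. Xrn1 had 43, 4 and 31 reads in CTRL tumours 1, 2 and 3 and 9, 7 and 20 reads in SEVO tumours 1, 2 and 3, so its lowest tumour was the CTRL tumour with the lowest background. Of the exosome and its helpers, 5 of 9 were below 0, with a median of -0.01. Dis3, a catalytic subunit, was at -1.43, Ttc37 at -1.57 and Wdr61 at 0.32. Dis3 was the only one of the 35 genes (2.86%) with all SEVO tumours below all CTRL tumours in CPM. This was a smaller share than the 4.39% of all tested genes. Dis3 had 19, 9 and 17 reads in CTRL tumours 1, 2 and 3 and 2, 6 and 10 in SEVO tumours 1, 2 and 3. By reads its groups overlapped. Dcp1b, a decapping cofactor on the study's own gene list, had 21, 3 and 15 reads in CTRL tumours 1, 2 and 3 and 3, 0 and 2 reads in SEVO tumours 1, 2 and 3. It did not pass the filter, its groups met at 3 reads, and its log2 fold change in the fit of all genes with a read was -2.34 (SE 0.89, adjusted p = 0.793 in edgeR).

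**Figure D5:**
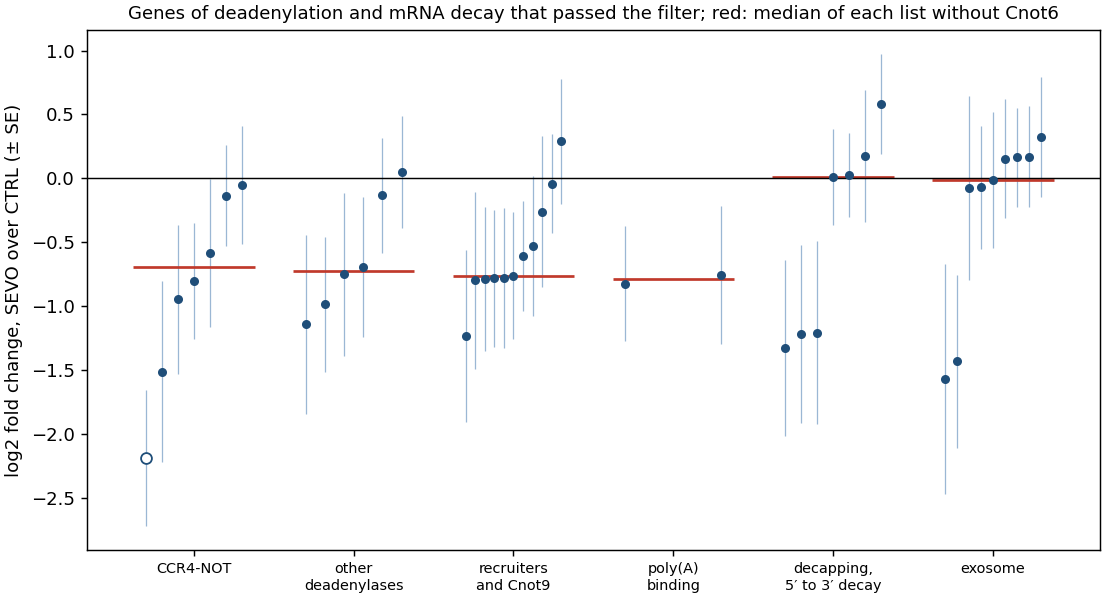
Log2 fold changes (SEVO over CTRL) with standard errors of the genes that passed the filter, for CCR4-NOT (Cnot6 as an open symbol) and the 5 lists of deadenylation and decay genes, with the median of each list, Cnot6 left out, in red. The medians are -0.69 for CCR4-NOT, -0.72 for the other deadenylases, -0.76 for the recruiters, -0.79 for the 2 poly(A)-binding genes, 0.01 for decapping and -0.01 for the exosome.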

How the data were processed

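RNA was measured by RNA-seq in 6 tumours. The authors removed ribosomal reads, trimmed, aligned to GRCm38 with GENCODE M17, selected unique reads and deposited raw read counts per gene from HTSeq, not normalised. Per the labels' processing notes of the submitters, Trimmomatic 0.36, STAR 2.6.0c and HTSeq 0.9.1 were used. The strand setting is not given in the sources used here. Of 53801 identifiers, 53706 were matched to GENCODE M21 on GRCm38 for positions, exon lengths and transcripts.

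Counts were compared with edgeR 4.0.16 in R 4.3.3 (TMM, filterByExpr, quasi-likelihood test, Benjamini-Hochberg adjustment over 7561 genes). The fit was tested on simulated data with 200 changed genes and the same dispersion for all genes. The simulated data held no background that differs between tumours. They therefore do not show how the fit performs with the background seen here. DESeq2 1.42.0 was an alternative. The SE was derived from the F statistic. Log2 CPM used a prior count of 2. Exact tests used scipy 1.17.1, and coding sequences were aligned with Biopython 1.88.

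Named were the 10 members, up to 3 tested genes per list with the lowest p, Dcp1b, and the 5 genes most like Cnot6. Of these, 1 gene is not reported here. Cnot9 and the genes sharing sequence or exons with members were named after their values were seen. The members and lists were chosen with earlier results of these data known. Columns of fold changes or p-values made by the authors were not used. Alternatives changed scaling, filter, test, background and the tumours included.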

Additional observations from a re-analysis of the deposited data

How the results depend on the processing

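Low counts and a background that differs between tumours limit these results. The log2 fold changes of Cnot1, Cnot2, Cnot4, Cnot6 and Cnot11 stayed below 0 under every alternative in which they had a value (with at least 10 reads in every tumour only Cnot1 of these had one, and Cnot4 did not pass the filter with library sizes without Gm10800 and Gm10801). Without the filter on low counts Cnot3, Cnot7 and Cnot10 were at 0.43, 0.50 and 0.021; scaled by library size only, Cnot3 and Cnot7 were at 0.17 and 0.24, and in DESeq2 at 0.25 and 0.33. With the background as a covariate, Cnot6l and Cnot7 were at 0.38 and 0.048. Leaving out single tumours gave ranges of -0.20 to 0.15 for Cnot3 (0.15 without CTRL tumour 1, 0.14 without SEVO tumour 2), -0.20 to 0.16 for Cnot7 (0.07, 0.09, 0.16 and 0.09 without CTRL tumours 1 and 3 and SEVO tumours 1 and 3) and -1.04 to 0.36 for Cnot6l (0.36 without CTRL tumour 3). The Cnot7 share of its pair then differed by -1.41 to 5.14 percentage points, with -1.41 without CTRL tumour 2 and -0.562 without SEVO tumour 2. The count of genes with an adjusted p under 0.05 ranged from 0 to 31, with 31 without CTRL tumour 2. The decay genes below 0, 25 of 35, were 19 of 35 by library size only, beside 38% of all genes in that fit. They were 14 of 18 with at least 10 reads in every tumour, beside 50.4%. Without the filter they were 41 of 67, beside 61.9%, and in DESeq2 44 of 67, beside 66.2%. In these last fits the decay genes thus did not exceed the share of all genes. The factors of the filtered genes without the filter were an alternative chosen after the data were seen. They put 10 members and 55 of 67 decay genes below 0, beside 78.4% of all genes with a read. They called 1 gene and gave -0.19 for Cnot8. The alternatives of the share of Cnot6 in the complex were also chosen then. That share differed by -10.1 percentage points with the background subtracted. The number of members below 0 has no value of its own without the filter, which is how it was defined, nor with at least 10 reads in every tumour. The cause was not tested in any of these cases. Deviations from the group mean had correlations of -0.40, 0.32 and 0.08 between same-numbered tumours 1, 2 and 3. With 3 tumours per group, these values cannot decide whether the numbers pair the tumours. With the replicate block, 1 gene had an adjusted p under 0.05, no member did, and Cnot6 was at -2.12.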
